A study of Mus musculus with 96 samples.

Results

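The data described here are the WDR5 ChIP-seq peaks of Rybp-floxed mouse embryonic stem cells (ESCs), compared between cells that kept RYBP (Rybp+/+) and cells that had lost it (Rybp-/-). The members are all distinct intervals of the peak lists deposited for WDR5, 1 list per genotype, and intervals listed more than once were counted once. The Rybp+/+ list held 11965 WDR5 peaks and the Rybp-/- list 12946, together 24911 of the 240973 peaks in all the peak lists used here, and they came from 4 of the 96 samples of the series. The cells were of the R7.15 line, which carries floxed Rybp alleles together with Cre recombinase fused to a tamoxifen-responsive receptor at Rosa26, and were grown in serum with LIF. Rybp-/- cells received 5 µM 4-hydroxytamoxifen (4-OHT) for 4 days and Rybp+/+ cells received none, so the loss of RYBP and exposure to 4-OHT and active Cre cannot be told apart in these groups. RNA-seq of the same genotypes (2 libraries each), and RNA-seq of R1 ESCs that carried a short hairpin RNA against Wdr5 (shWdr5) or the empty vector (shEV; 2 libraries each), gave the response of the bound genes. The ChIP-seq replicates had been merged before peaks were called, so no replicate error exists for any peak, and the intervals given for counts of peaks or genes are 95% Wilson intervals that cover counting error only.

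WDR5 is a WD-repeat protein that holds together the MLL and SET1 (COMPASS) complexes, which methylate lysine 4 of histone H3, and it is also a subunit of the NSL histone acetyltransferase complex and of PRC1.6, a variant Polycomb repressive complex. RYBP is a subunit of the variant forms of PRC1, in which it supports ubiquitylation of histone H2A by RING1A and RING1B. In ESCs WDR5 is known for its place at active promoters and for the support of self-renewal, while PRC1.6 is known for the silencing of germline genes.

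Sequences of 200 bases centred on the peak summit, read from the plus strand of mm9, are given for loci that stand for each kind of peak described here. Capitals mark the letters GGGCGG (the core of SP and KLF factor motifs), CCGGAAG (an ETS factor motif) and CACGTG (an E-box) on either strand, and CCGGAAG and GGGCGG can share a G where they meet. Windows that overlapped an annotated exon were passed over. The first pair are strong peaks found in both genotypes, at the start of Osbp, an oxysterol-binding lipid transporter, at chr19:12040058-12040257, and of Flad1, which makes the cofactor FAD, at chr3:89215813-89216012.
Osbp: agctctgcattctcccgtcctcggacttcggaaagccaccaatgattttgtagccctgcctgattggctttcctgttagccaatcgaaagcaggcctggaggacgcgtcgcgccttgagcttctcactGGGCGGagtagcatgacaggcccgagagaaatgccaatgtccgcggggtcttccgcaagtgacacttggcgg
Flad1: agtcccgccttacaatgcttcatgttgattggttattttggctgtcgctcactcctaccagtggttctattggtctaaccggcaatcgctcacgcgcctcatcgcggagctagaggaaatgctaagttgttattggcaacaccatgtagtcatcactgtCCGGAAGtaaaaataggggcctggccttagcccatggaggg
The next pair are among the strongest peaks called in Rybp+/+ ESCs alone, in introns of Sec24b, a coat protein of vesicles that leave the endoplasmic reticulum (chr3:129763177-129763376), and of Zfp219, a zinc finger factor (chr14:52634358-52634557). Zfp219 also had a weaker Rybp-/- peak elsewhere within 1 kb of a TSS.
Sec24b: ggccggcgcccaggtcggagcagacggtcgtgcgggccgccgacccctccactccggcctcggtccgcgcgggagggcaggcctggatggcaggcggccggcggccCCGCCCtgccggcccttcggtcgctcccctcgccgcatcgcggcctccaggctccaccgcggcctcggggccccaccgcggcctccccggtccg
Zfp219: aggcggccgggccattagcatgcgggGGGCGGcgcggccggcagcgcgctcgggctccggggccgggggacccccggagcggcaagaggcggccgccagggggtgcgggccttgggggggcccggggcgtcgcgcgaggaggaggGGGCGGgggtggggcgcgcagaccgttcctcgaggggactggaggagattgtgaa
The strongest peaks called in Rybp-/- ESCs alone were intergenic, and lay 12437 bp from the nearest start site, that of Dtnb (chr12:3791885-3792084), and 152015 bp from that of Nrn1 (chr13:36670422-36670621).
Dtnb: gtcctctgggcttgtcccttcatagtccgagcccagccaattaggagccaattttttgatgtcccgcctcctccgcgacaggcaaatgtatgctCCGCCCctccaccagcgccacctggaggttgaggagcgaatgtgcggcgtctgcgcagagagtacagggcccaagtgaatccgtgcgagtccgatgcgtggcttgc
Nrn1: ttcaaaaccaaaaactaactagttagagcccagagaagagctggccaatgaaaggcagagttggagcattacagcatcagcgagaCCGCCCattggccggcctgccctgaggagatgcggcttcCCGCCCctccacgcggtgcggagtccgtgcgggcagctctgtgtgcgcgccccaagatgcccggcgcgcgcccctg
The last pair are among the shared peaks whose rank moved most between the lists, a fall at Pdcd4, an inhibitor of translation initiation (chr19:53978010-53978209), and a rise at Psmc6, an ATPase of the proteasome (chr14:45949279-45949478).
Pdcd4: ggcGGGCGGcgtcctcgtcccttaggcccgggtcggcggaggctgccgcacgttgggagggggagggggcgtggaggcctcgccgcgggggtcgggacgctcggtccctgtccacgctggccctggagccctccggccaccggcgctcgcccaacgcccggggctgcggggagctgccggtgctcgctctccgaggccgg
Psmc6: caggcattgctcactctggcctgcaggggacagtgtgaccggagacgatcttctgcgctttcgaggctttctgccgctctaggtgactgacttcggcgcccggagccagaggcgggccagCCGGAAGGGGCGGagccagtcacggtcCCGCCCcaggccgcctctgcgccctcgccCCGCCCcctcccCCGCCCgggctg
The windows at Osbp and Flad1 had GC contents of 58.0% and 50.5%, while those at Sec24b and Zfp219 had more, 82.5% at Sec24b, a contrast opposite to that of the class medians (68.5% for shared and 65.5% for control-only peaks). The GGGCGG letters occurred 4 times at Psmc6 and 1 time at Pdcd4.

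The question for the peak lists was whether loss of RYBP changed where WDR5 was found. The Rybp-/- list held 108.2% of the number of peaks of the Rybp+/+ list (95% interval 105.5 to 110.9, from an exact binomial interval). This interval covers counting error only and is no test between genotypes. WDR5 peaks covered 8.09 Mb in Rybp+/+ and 8.88 Mb in Rybp-/- ESCs, with median widths of 590 bp and 608 bp. Fold enrichment, the summit signal relative to the local background as given by the peak caller, had medians of 5.17 and 5.104 and reached 67.5 and 72.8. By an overlap of at least 1 bp, 10611 Rybp+/+ peaks had a Rybp-/- peak and 1354 had none (11.3%, 10.8 to 11.9), here called control-only. Of the Rybp-/- peaks 2290 (17.7%, 17.0 to 18.4) had no Rybp+/+ peak and are called knockout-only. The depth of the ChIP libraries is unknown from the peak lists, 1 input served each genotype, and a deeper library gives more weak peaks, so the numbers of peaks were not tested between genotypes.

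Peaks without a partner were weak in both directions. The median fold enrichment was 3.90 for control-only and 3.71 for knockout-only peaks, against 5.49 and 5.596 for shared peaks in the same lists. Ranked within their own list (percentile 100 is the strongest peak), control-only peaks had a median percentile of 21.3 and knockout-only peaks of 20.7. In the weakest decile of each list 27.5% of Rybp+/+ and 43.4% of Rybp-/- peaks had no partner, and in the top 2 deciles of the Rybp+/+ list, that is above a fold enrichment of 8.17, every peak had one. Unmatched peaks were also more frequent away from start sites, since 9.05% of the Rybp+/+ peaks within 1 kb of an annotated transcription start site (TSS) had no partner, against 25.5% of those further away, and in the Rybp-/- list these shares were 13.7% and 39.4%. For 313 control-only and 262 knockout-only peaks, a peak of the other list lay within 500 bp without overlap.

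**Figure D1:**
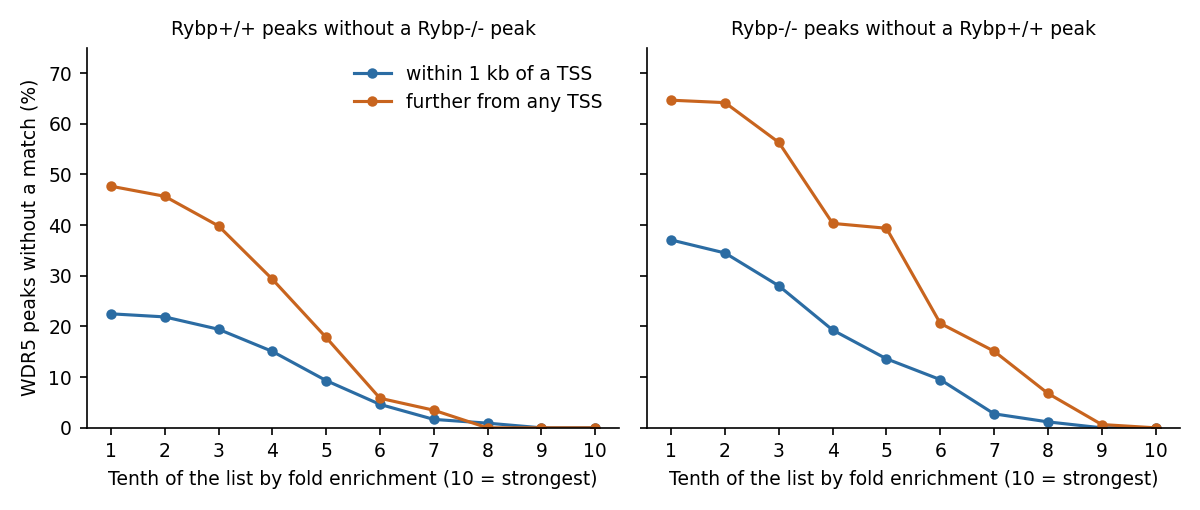
Share of WDR5 peaks (%) that overlap no peak of the other genotype, by decile of the list ranked by fold enrichment (1 is the weakest), for peaks within 1 kb of a TSS (blue) and further away (orange), in the Rybp+/+ list (left) and the Rybp-/- list (right). In both lists the share falls with strength, from 22.5% and 47.7% in the weakest decile of the Rybp+/+ list to 0 in its 2 strongest deciles, and distal peaks are above promoter peaks in each of the weakest 7 deciles.

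Shared WDR5 peaks were promoter peaks. Within 1 kb of a TSS lay 88.5% of the shared Rybp+/+ peaks (87.8 to 89.1), 69.0% of control-only (66.5 to 71.4) and 65.5% of knockout-only peaks (63.5 to 67.4). H3K4me3, the mark that COMPASS complexes deposit, was called in the same genotype at 97.9%, 94.9% and 90.7% of these classes. H3K27ac, a mark of active promoters and enhancers, was called at 84.0%, 59.5% and 61.8%. RING1B, the catalytic PRC1 subunit, was called at 66.8%, 64.3% and 60.8%, from 1 library of shEV R1 ESCs, which is another line. STAT3, the transcription factor downstream of LIF, had been mapped in 1 library per genotype and was called at 11.1%, 10.0% and 5.15%.

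H3K4me3 was called in both genotypes at most unmatched WDR5 peaks, and H3K27ac calls differed between genotypes at a minority of them. A call of presence cannot show a change in the height of a mark. Of the 1354 control-only peaks, 1269 overlapped H3K4me3 in both genotypes, 16 in Rybp+/+ alone and 2 in Rybp-/- alone. Of the 2290 knockout-only peaks, 2051 overlapped H3K4me3 in both genotypes, 27 in Rybp-/- alone and 28 in Rybp+/+ alone. For H3K27ac, 230 knockout-only peaks (10.0%) had the mark in Rybp-/- alone and 31 (1.35%) in Rybp+/+ alone, while 46 control-only peaks (3.397%) had it in Rybp+/+ alone and 79 (5.84%) in Rybp-/- alone. Shared WDR5 peaks also had H3K27ac in Rybp-/- alone more often (391, 3.69%) than in Rybp+/+ alone (122, 1.15%), and the H3K27ac list of Rybp-/- ESCs was longer (62669 against 57642 peaks). By chromosome, the share of peaks without a partner was highest on X, with 21.5% of 186 Rybp+/+ and 25.1% of 191 Rybp-/- peaks, against 8.92% to 14.4% and 14.1% to 19.9% on the autosomes.

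The strongest control-only peak lay over an exon of Hoxa13, a homeobox gene of distal limb and hindgut (chr6:52210703-52211244), with a fold enrichment of 7.99 at percentile 79.2, with H3K4me3 and RING1B and without H3K27ac in either genotype. A weaker Rybp-/- peak of 2.87 lay elsewhere within 1 kb of its TSS. The peaks at Sec24b (7.54), Foxp1, a forkhead factor (7.21), Laptm4b, a lysosomal membrane protein (7.17), Zfp120 (6.97) and Zfp219 (6.85) followed, all with H3K4me3 and H3K27ac in both genotypes. Zfp219 too had a weaker Rybp-/- peak (3.79) elsewhere within 1 kb of a TSS. Knockout-only peaks were led by the intergenic peak near Dtnb (8.84, percentile 81.3), which had H3K4me3 in both genotypes and no H3K27ac, and the intergenic peak near Nrn1 (8.26), which had H3K27ac in Rybp-/- alone. An intronic peak 50137 bp from the start of Bmp7, a BMP ligand (chr2:172715261-172715679, 7.83), had H3K27ac in Rybp-/- alone and H3K4me3 in neither genotype. At start sites, knockout-only peaks were strongest at Mfsd1, a lysosomal transporter (8.11), Serinc5, a membrane protein (7.77), and Mtx3, a mitochondrial import factor (7.60).

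Of the shared peaks, 9860 matched 1 to 1, 284 Rybp+/+ peaks were split in Rybp-/- and 243 Rybp-/- peaks joined several Rybp+/+ peaks. Over the 9860 pairs the log2 fold enrichments had a Pearson correlation of 0.83 and a Spearman correlation of 0.69, given as a description since the points come from 1 pooled library set per genotype. Of the 1163 pairs in the top decile of the Rybp+/+ list, 998 (85.8%) were in the top decile of the Rybp-/- list. The median change of percentile from Rybp+/+ to Rybp-/- was +1.08, and 45.4% of pairs (44.4 to 46.4) ranked lower in Rybp-/-. This share was 47.0% with a RING1B peak and 42.4% without, and 53.1% (50.05 to 56.1) at the 1034 pairs with a STAT3 peak against 44.5% at those without. Fold enrichment was more than 2 times as high in Rybp-/- at 328 pairs and less than 50% as high at 150.

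**Figure D2:**
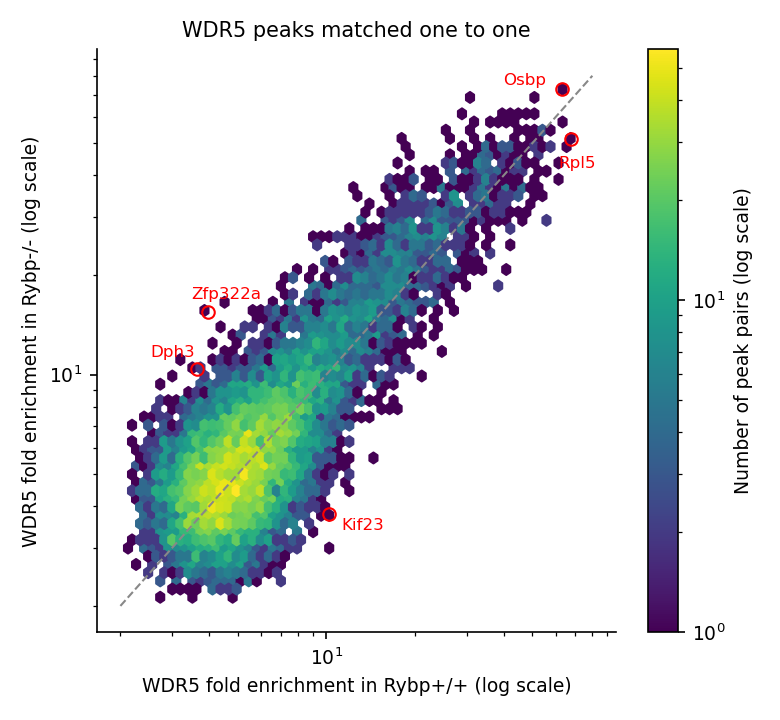
Fold enrichment of WDR5 in Rybp+/+ (x axis, log scale) and Rybp-/- ESCs (y axis, log scale) for the 9860 peaks matched 1 to 1, with the number of pairs per hexagon as colour (log scale) and a dashed line of equal values. Most pairs lie along the line, with Kif23 below it (10.2 and 3.801), Dph3 and Zfp322a above it (3.63 and 10.4, 3.97 and 15.5), and Osbp and Rpl5 at its upper end.

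The pairs named next were picked for the size of their change in rank, among pairs with a mean percentile of 50 or more, so their values are a description. The largest falls were at Kif23, a kinesin of cytokinesis (10.2 to 3.801, from percentile 86.7 to 22.3), Pdcd4 (9.63 to 3.79), Scmh1, a Polycomb-group protein (8.60 to 3.73), Il17rd, an inhibitor of FGF signalling (10.1 to 4.02), Parp6 (8.61 to 3.84) and Hspa1b, an HSP70 chaperone (8.72 to 3.88). RING1B was called at 5 of these 6, Hspa1b being the exception, and at 6485 of all 9860 pairs. The largest rises were at Dph3, of diphthamide synthesis (3.63 to 10.4, from percentile 15.4 to 85.5), Zfp322a (3.97 to 15.5), Psmc6 (3.83 to 10.4), Wdr67 (3.796 to 10.2), Alg1, of protein glycosylation (3.83 to 9.52), and an intergenic site 76874 bp from the start of Chd2 (3.90 to 9.87). RING1B was called at 1 of these 6, the site near Chd2.

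The sequence under the summits differed between shared and unmatched peaks in base composition. In the 200 bases at the summit, shared Rybp+/+ peaks had a median GC content of 68.5% and a CpG ratio (observed over expected) of 0.863, control-only peaks 65.5% and 0.740, and knockout-only peaks 64.5% and 0.704. Windows of the same length at the TSSs of 22377 protein-coding genes had 59.0% and 0.611. GGGCGG, searched on both strands, was present in 63.8% of shared, 45.0% of control-only and 44.6% of knockout-only windows and in 39.9% of the windows at protein-coding TSSs. CCGGAAG was present in 13.6%, 6.06%, 6.38% and 9.37%, and CACGTG in 6.50%, 5.54%, 5.90% and 5.55%, in the same order. The E2F letters GCGGGAA were present in 7.69%, 5.24%, 6.03% and 4.27%. GGGCGG and GCGGGAA matches become more frequent with GC content, which differed between the classes, and its part in these shares was not tested.

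A gene was taken as bound when a WDR5 peak overlapped the 1 kb either side of one of its TSSs. Of the 22380 protein-coding genes of the annotation, 9701 (43.4%) were bound in both genotypes, 526 (2.35%) in Rybp+/+ alone, 1051 (4.70%) in Rybp-/- alone and 11102 (49.6%) in neither. Over all 37310 annotated genes these numbers were 10734, 619, 1239 and 24718. The control-only peaks lay at 1031 genes, and 430 of these were bound in both genotypes by other peaks. The strongest shared peaks at protein-coding genes were at Rpl5 (67.5 in Rybp+/+ and 51.6 in Rybp-/-), Rpl17 (64.0 and 49.8), Osbp (63.0 and 72.8), Rps3a (62.4 and 58.9), Rpl13 (61.3 and 42.8), Slc39a3, a zinc transporter (59.9 and 38.1), Rpl32 (59.3 and 49.7) and Cct4, a subunit of the TRiC chaperonin (57.8 and 54.2). Of these 8, 5 encode ribosomal proteins.

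The genes of WDR5's own complexes are expressed genes, and among genes tested in Rybp-/- ESCs 5149 at 10 to 100 CPM were bound in both genotypes and 853 in neither, and above 100 CPM 2050 and 177. Of 21 COMPASS and MLL subunit genes 19 were bound in both and 2, Rbbp5 and Hcfc1, in Rybp+/+ alone. Among the 19 there were 5 with a higher fold enrichment in Rybp-/-, while over all 9860 pairs the median log2 ratio was 0.08 and 45.4% ranked lower. The value of a gene is that of its strongest peak within 1 kb of a TSS in each genotype. This need not be the same site, so the matched pairs are not a like reference. Fold enrichment was lower in Rybp-/- at the catalytic subunits Setd1a (6.97 to 3.61) and Kmt2b (8.22 to 4.19), at Psip1, a chromatin tether (7.99 to 4.39), and at Ncoa6, a coactivator (6.63 to 2.48), and higher at Ash2l, a core subunit (7.95 to 13.8), and Kdm6a, the H3K27 demethylase (8.399 to 13.4). These values have no replicate. Among the 10 genes of the NSL complex 8 were bound in both, and 3 of them had peaks in the top decile of both lists: Kansl2 (49.6 and 39.5) and Kansl1 (21.9 and 31.2), which build the complex, and Phf20, a methyl-lysine reader (19.5 and 41.5). All 15 genes of PRC1.6 were bound in both genotypes, none in the top decile, and 12 of them carried RING1B. At Rybp itself the values were 6.74 and 6.91, at Wdr5 6.26 and 7.55, and at Cbx1, a heterochromatin protein, 2.86 and 7.30.

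RNA-seq counts on genes were 75496499 to 81049618 per library in the R7.15 genotypes and 19731613 to 21500931 in the R1 libraries. Rybp had 110.4 and 110.2 CPM (counts scaled to a common library size) in Rybp+/+ and 24.8 and 25.0 in Rybp-/- libraries, which is -2.15 on the log2 scale with a standard error of 0.05 (adjusted p = 8.1e-27, edgeR). Wdr5 had 349.8 and 342.9 CPM in shEV and 60.1 and 58.2 in shWdr5 libraries (-2.55 on the log2 scale, adjusted p = 4.7e-21, edgeR). Wdr5 RNA also fell slightly in Rybp-/- ESCs, from 245.1 and 253.1 to 225.4 and 225.6 CPM (-0.14, adjusted p = 0.0005). Rybp RNA rose after Wdr5 knockdown (0.56, adjusted p = 3.8e-09). The summed level of 10 fibroblast markers, the feeder cell type that ESC cultures can hold, was 64.2 to 64.9 CPM in Rybp+/+ and 131 to 136 CPM in Rybp-/- libraries, with 9 of 10 called higher and none at 0. That of 10 primitive endoderm markers was 212 to 218 and 328 to 329 CPM, and that of 10 ESC markers 6436 to 6530 and 6504 to 6540 CPM. After Wdr5 knockdown the ESC markers summed to 7083 to 7148 CPM against 8595 to 8842 in shEV, and the primitive endoderm markers to 455 to 462 against 230 to 243 CPM. Fibroblast markers were low there (21.8 to 23.7 CPM in shEV, 19.4 to 20.3 in shWdr5, with 2 of 10 at 0). Neuroectoderm markers summed to 115 to 122 CPM in Rybp+/+ and 134 to 136 in Rybp-/-, and to 295 to 308 in shEV and 181 to 193 in shWdr5 libraries. Mesoderm markers were at 9.03 to 9.97 CPM in all R7.15 libraries and at 24.8 to 25.2 in shEV and 38.0 to 40.1 in shWdr5 libraries. The part of such cells in the results that follow was not tested, and in bulk RNA fewer cells of a type and less RNA per cell cannot be told apart. Nothing in the labels says that replicates came from separate cultures, so p-values measure the spread between these libraries, which may be technical.

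In Rybp-/- ESCs, genes bound by WDR5 in both genotypes fell more often than they rose when all were counted, and rose more often where expression was low. Of 16955 genes tested 45.5% were called, 22.8% higher and 22.7% lower. Among 9792 tested genes bound in both genotypes 2077 rose (21.2%, 20.4 to 22.0) and 2949 fell (30.1%, 29.2 to 31.0), with a median log2 fold change of -0.03. Genes bound in Rybp-/- alone went the other way, with 291 of 1001 higher (29.1%, 26.3 to 32.0) and 181 lower (18.1%, 15.8 to 20.6). Of 513 genes bound in Rybp+/+ alone 133 rose (25.9%) and 99 fell (19.3%), and of 5620 genes bound in neither 1371 rose (24.4%) and 614 fell (10.9%). These classes differed in expression, with median levels in the controls of 32.1 CPM for genes bound in both, 6.33 and 6.82 CPM for those bound in 1 genotype and 0.855 CPM for those bound in neither. Within 10 to 100 CPM the shares that rose and fell were 21.9% and 36.0% for genes bound in both, 28.4% and 29.7% for genes bound in Rybp-/- alone, and 28.4% and 29.5% for genes bound in neither. For genes bound in both they were 22.7% and 18.7% at 1 to 10 CPM (n = 1766), 10.0% and 4.35% under 1 CPM (n = 827), and 22.8% and 35.7% above 100 CPM (n = 2050). Most changes were small: 196 genes bound in both (2.00%) rose and 73 (0.746%) fell by more than 1 on the log2 scale, against 6.6% and 1.24% of all genes tested.

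**Figure D3:**
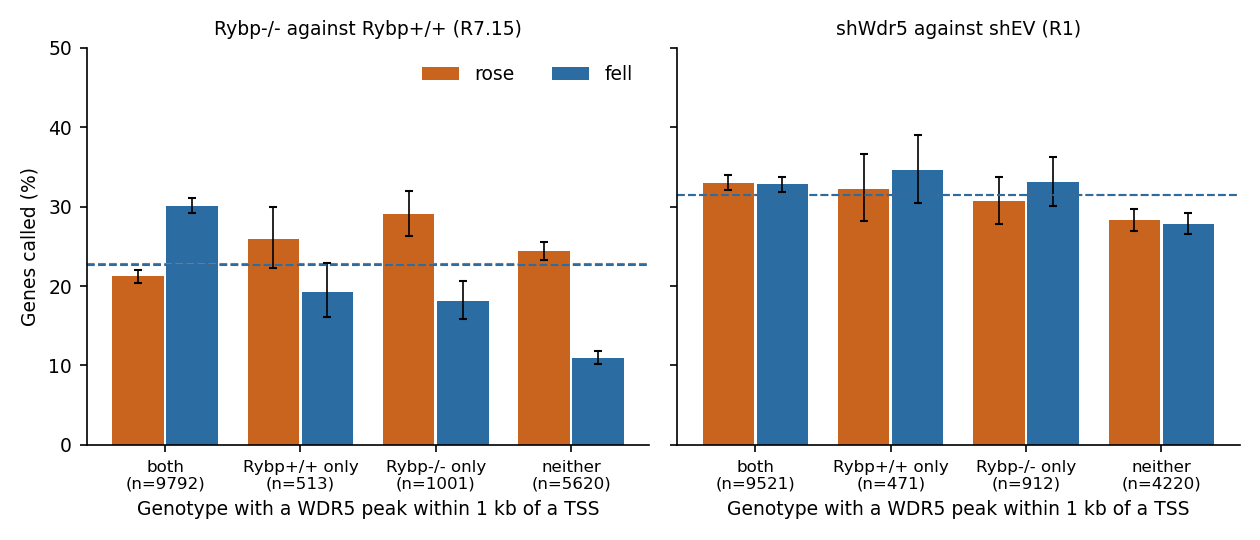
Share of tested genes (%) that rose (orange) or fell (blue) at an adjusted p under 0.05, by the genotype in which a WDR5 peak lay within 1 kb of a TSS, in Rybp-/- against Rybp+/+ ESCs (left) and in shWdr5 against shEV ESCs (right). Error bars are 95% Wilson intervals for counting error, and the dashed lines, which coincide for both directions, are the shares over all genes tested (22.8% and 22.7% on the left, 31.5% and 31.5% on the right). In the left panel genes bound in both have the highest share that fell (30.1%), while in the right panel their shares are 33.0% and 32.8%.

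Among genes bound in both genotypes the strength of WDR5 went with fewer rises. From the weakest to the strongest quartile by mean percentile, the share that rose in Rybp-/- was 25.0%, 21.2%, 20.5% and 18.1%, and the share that fell 26.7%, 31.3%, 31.6% and 30.8%. Median expression in the controls also differed between these quartiles (19.9, 32.3, 41.4 and 39.6 CPM), and its part was not tested. By change in WDR5 rank, 32.4% of the 1404 genes whose percentile dropped by 20 or more fell (30.0 to 34.9), 30.2% of those that moved by less, and 28.3% of the 1894 whose percentile was higher by 20 or more (26.3 to 30.4). The shares that rose were 21.4%, 20.7% and 22.8%. The difference between these groups was not tested. Of the genes picked above for falls of rank, Kif23 (log2 fold change -0.16, adjusted p = 0.00057) and Parp6 (-0.52, adjusted p = 4.7e-05) fell by edgeR's test, while Scmh1 (0.11), Il17rd (-0.02) and Hspa1b (-0.02) did not pass it. Of those picked for rises of rank, Alg1 (0.41, adjusted p = 6e-05), Dph3 (0.23, adjusted p = 0.004) and Psmc6 (0.12, adjusted p = 0.0034) rose, and Wdr67 (-0.12) did not pass. The calls of Dph3 and Psmc6 were lost without replicate 2 of Rybp-/- (0.19 and 0.10), and that of Dph3 also without replicate 2 of Rybp+/+ (0.18). Without that Rybp+/+ library Scmh1 (0.17) and Wdr67 (-0.17) passed. Pdcd4 (-0.16, adjusted p = 0.032) and Zfp322a (-0.17, adjusted p = 0.03) passed by edgeR and did not pass by DESeq2, or without replicate 1 of either genotype, where the values were -0.09 and -0.11 for Pdcd4 and -0.15 and -0.09 for Zfp322a. The genes with RING1B fell in 31.5% and rose in 21.6% of cases, and those without it in 27.0% and 20.4%.

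Among genes bound in both with a mean of at least 5 CPM, 4 of the 5 with the largest rises were germline genes. Taf7l, a germ cell variant of a TFIID subunit, was at 1.57 and 2.16 CPM in Rybp+/+ and 10.9 and 11.2 CPM in Rybp-/- (log2 fold change 2.57, standard error 0.14, adjusted p = 1.3e-16, edgeR). Piwil2, a PIWI protein, followed with 1.96, then 8030474K03Rik with 1.93, Mov10l1, a helicase of the piRNA pathway, with 1.83 and Mael, of transposon silencing, with 1.77. Apart from Rybp the largest falls were in Lef1, a nuclear effector of Wnt signalling (-1.76, from 32.7 and 30.2 to 8.57 and 10.0 CPM), Lrp2, the endocytic receptor megalin (-1.54), Myb (-1.52) and Mapk12, a p38 kinase (-1.33). All of these genes carried RING1B, as did 6858 of the 9792 tested genes bound in both. Among genes bound in Rybp+/+ alone, Dgat2, of triglyceride synthesis (1.44), and Pou6f1 (1.44) rose most, and Gadd45g, a stress-response gene (-1.11), and Snhg11 (-1.01) fell most. Among genes bound in Rybp-/- alone, Tex11 (2.33), Syce1 (2.04) and Sohlh2 (1.66), all germline genes, rose most, and Nnat, an imprinted gene (-1.19), fell most. Of the genes at the strongest control-only peaks, Foxp1 (-0.42, adjusted p = 1.5e-07, edgeR) and Laptm4b (-0.35, 1.4e-07) fell. Sec24b (0.11, adjusted p = 0.054), Zfp120 (-0.17, 0.13) and Zfp219 (-0.04, 0.48) did not pass the test. Hoxa13 rose (1.66, adjusted p = 0.048) at very low levels, from 0.04 and 0.20 to 0.51 and 0.25 CPM. At the strongest knockout-only peaks near a TSS, Mfsd1 rose (0.51, 1e-12). Serinc5 (-0.39, 1.7e-05) and 1110051M20Rik (-0.26, 0.021) fell, and Mtx3 did not pass (0.10, 0.5).

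After Wdr5 knockdown in R1 ESCs 63.0% of 15143 genes were called, 31.5% higher and 31.5% lower. Of 9521 tested genes bound in both genotypes of the R7.15 line 3145 rose (33.0%, 32.1 to 34.0) and 3126 fell (32.8%, 31.9 to 33.8), with a median log2 fold change of -0.003. These genes make up most of those tested and the scaling centres the table near 0, so their balance is a description. From the weakest to the strongest quartile of WDR5, the share that rose was 33.6%, 34.3%, 33.9% and 30.4%. The share that fell was 32.8%, 32.7%, 30.9% and 34.9%. Above a mean percentile of 95, 188 of 656 genes rose (28.7%) and 271 fell (41.3%, 37.6 to 45.1), and without the ribosomal protein genes these shares were 30.5% and 37.4%. Genes bound in both with RING1B rose in 35.0% and fell in 31.3% of cases, and those without it rose in 28.5% and fell in 36.5%.

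The genes of WDR5's own complexes are read against all genes bound in both, of which 21.2% rose and 30.1% fell in Rybp-/- ESCs and 33.0% rose and 32.8% fell after Wdr5 knockdown. Of the 21 COMPASS genes 4 rose and 10 fell in Rybp-/- ESCs and 6 rose and 8 fell after Wdr5 knockdown, with medians of -0.06 and -0.07 on the log2 scale. Of the 10 NSL genes none rose and 6 fell in Rybp-/-, and 5 rose and 2 fell after Wdr5 knockdown. Of the 15 PRC1.6 genes 4 rose and 7 fell in each comparison. Each of these lists includes Wdr5, and that of PRC1.6 includes Rybp, which were the targets of these experiments.

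The largest falls after Wdr5 knockdown among genes bound in both, apart from Wdr5, included genes with strong peaks. Actn3, a muscle actinin with a fold enrichment of 32.4 in Rybp+/+ and 35.4 in Rybp-/- ESCs, fell from 42.7 and 43.8 to 4.91 and 4.08 CPM (log2 fold change -3.26, standard error 0.11, adjusted p = 1.8e-17, edgeR). Rpl7l1, of ribosome assembly (25.6 and 21.5 in fold enrichment), fell from 290.6 and 287.7 to 51.5 and 51.3 CPM (-2.49), and Vstm2l (14.7 and 16.0) from 8.65 and 8.66 to 1.36 and 1.78 CPM (-2.46). Scd2, a fatty acid desaturase with a weaker peak (7.13 and 8.59), fell by 2.51 on the log2 scale. E2f3, an activator of S phase genes, had peaks of 52.6 and 34.2 and fell from 65.5 and 64.9 to 14.8 and 18.0 CPM (-1.99, adjusted p = 1.2e-15), while its RNA did not pass the test in Rybp-/- ESCs (-0.02, adjusted p = 0.78). The largest rises among genes bound in both were in Sez6 (3.85, with fold enrichments of 9.69 and 10.1), Tap1, an antigen peptide transporter (3.57, with 2.44 and 3.70), and Sema6a (3.50, with 4.51 and 3.97). Serinc5, with its knockout-only peak, rose by 3.37.

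The 2 RNA-seq comparisons share no library, and 14757 genes were tested in both. Of 2045 genes bound in both that rose in Rybp-/-, 38.8% rose and 31.6% fell after Wdr5 knockdown. Of the 2937 that fell in Rybp-/-, 34.1% rose and 36.1% fell. Over all 9460 genes bound in both and tested in both comparisons, 32.9% rose and 33.0% fell after Wdr5 knockdown. Genes bound in neither gave 34.7% and 31.0% for those that rose in Rybp-/- and 25.1% and 38.4% for those that fell, against 26.8% and 29.0% over all such genes.

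Ribosomal protein genes had the highest median fold enrichment of the gene lists used (33.1 in Rybp+/+) and split by them in the response to Wdr5 knockdown. Of 78 cytosolic ribosomal protein genes 68 were bound in both genotypes, 1 in Rybp-/- alone and 9 in neither. The bound genes fell into 44 in the top decile of the Rybp+/+ list, with fold enrichments of 18.8 to 67.5, and 24 with 2.601 to 10.7, and in Rybp-/- these groups had 18.9 to 61.6 and 3.49 to 11.4. After Wdr5 knockdown 42 of the 44 fell and 2 rose, among them Rplp0 (0.55), with a median log2 fold change of -0.64, where 33.0% of all tested genes bound in both rose and 32.8% fell. Of the 24 with weaker peaks 23 rose and none fell, with a median of 0.43, and Rps25 (0.07, adjusted p = 0.12) did not pass the test, although it did so without replicate 1 of shEV (0.11). Of the 9 bound in neither 6 rose and 3 fell. The split at the top decile was chosen after these values were seen.

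**Figure D4:**
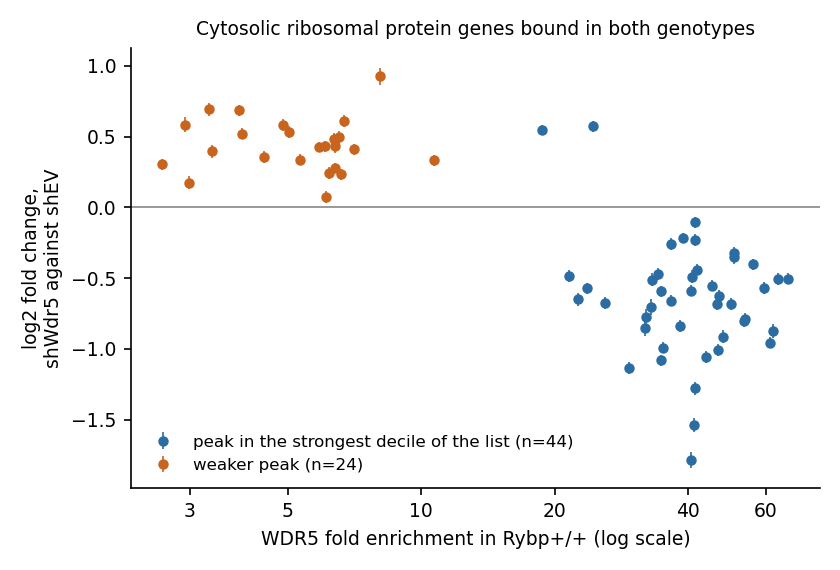
WDR5 fold enrichment in Rybp+/+ R7.15 ESCs (x axis, log scale) against the log2 fold change of shWdr5 over shEV R1 ESCs (y axis, bars are the standard error of the fit on 2 libraries per group) for 68 cytosolic ribosomal protein genes. The 24 genes with weaker peaks (orange) all lie above 0, and the 44 in the strongest decile of the list (blue) lie below it except for 2 genes.

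Rpl29 fell most among these genes (log2 fold change -1.79, fold enrichments 40.8 and 61.6), followed by Rpl35 (-1.54, 41.2 and 57.8) and Rpl37a (-1.28, 41.5 and 27.0). Rpl5, with the highest fold enrichment of the list, went from 981.6 and 936.5 to 682.1 and 670.7 CPM (-0.50, adjusted p = 2.5e-10), and Rpl13 from 2532 and 2628 to 1305 and 1353 CPM (-0.96). On the other side Rpl23a (3.32 and 4.94) rose by 0.69 and Rps26 (3.88 and 4.07) by 0.68. The groups had like levels in the shEV libraries, with medians of 865 and 808 CPM. Their peaks differed in shape: the strong peaks had a median width of 1227 bp and a summit 105 bp downstream of the TSS at the median, and the weaker ones 639 bp and a summit 32 bp upstream. In Rybp-/- ESCs the 44 genes gave 2 rises and 5 falls and the 24 genes 2 rises and 5 falls, with medians of -0.03 and 0.01, while of all genes bound in both above 100 CPM 22.8% rose and 35.7% fell. Ribosomal protein genes have many near-identical pseudogene copies, to which the counting can assign reads, so single values of this family are uncertain.

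Other genes of protein synthesis were mixed, and their calls are read against 31.5% higher and 31.5% lower over all genes tested after Wdr5 knockdown and 22.8% and 22.7% in Rybp-/- ESCs. Of 35 translation factor genes 31 were bound in both genotypes, and 8 of these had top-decile peaks in Rybp+/+. Of those 8, 5 fell after Wdr5 knockdown, among them Eef1g, an elongation factor subunit (fold enrichments 42.3 and 30.7, log2 fold change -1.60, adjusted p = 3.1e-19), Eif3d, an initiation factor subunit (34.3 and 40.1, -0.98), and Eef2, the translocation factor (40.9 and 41.2, -0.62), while Eif5 (36.9 and 30.3) rose by 0.54. Of the 23 with weaker peaks 10 rose and 9 fell. Among 76 mitochondrial ribosomal protein genes 60 were bound in both, and of 75 tested 12 rose and 36 fell after Wdr5 knockdown, while 22 rose and 7 fell in Rybp-/- ESCs. All 6 tested hosts of small nucleolar RNAs rose after Wdr5 knockdown, 4 of them bound in both, such as Gas5 (0.67) and Snhg1 (0.55), and in Rybp-/- ESCs 1 rose and 2 fell. Cct4, with its peak of 57.8 and 54.2, fell from 429.5 and 405.4 to 207.1 and 200.9 CPM (-1.03), while Osbp, with 63.0 and 72.8, was at 0.16 (adjusted p = 0.032 by edgeR), a call that was lost by DESeq2 and without replicate 1 of shEV (0.13) or of shWdr5 (0.12).

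Most genes of p53 and the cell cycle had peaks outside the top decile, with 2 genes of each list inside it in Rybp+/+, E2f3 (52.6) and E2f1 (18.1), and Aen (16.1) and Sesn1 (14.1). Of all 9860 matched pairs 1163 were in that decile, so a place outside it is no trait of these lists. Of 18 genes of p53 and its targets 12 were bound in both, 3 in Rybp+/+ alone and 1 in Rybp-/- alone, and 16 rose and none fell after Wdr5 knockdown (31.5% and 31.5% of all genes tested), with a median log2 fold change of 1.21. Cdkn1a, the CDK inhibitor p21 (4.73 and 4.49), rose from 53.9 and 50.8 to 214 CPM in both shWdr5 libraries (2.03, adjusted p = 5e-19), Mdm2, the p53 ubiquitin ligase (4.63 and 5.67), rose by 2.37, and Trp53inp1 (5.42 and 5.64) by 2.55. In Rybp-/- ESCs 7 of the 18 rose and 4 fell (22.8% and 22.7% of all genes tested), with Cdkn1a at 0.47 and Mdm2 at 0.31. Of 21 cell cycle genes (cyclins, CDKs, their inhibitors, Rb1, E2f1 and E2f3) 17 were bound in both. After Wdr5 knockdown 6 rose and 11 fell, against 31.5% and 31.5% of all genes tested. Among them Ccne1, cyclin E1 (4.82 and 5.71), fell (-1.94) and Rb1 (7.46 and 5.64) rose by 2.41.

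Pluripotency genes are read against expressed genes, of which 9792 of the 16955 tested in Rybp-/- ESCs were bound in both genotypes, and above 100 CPM 2050 were bound in both and 177 in neither. Of 27 core and naive pluripotency genes 12 were bound in both genotypes, 1 in Rybp+/+ alone, 2 in Rybp-/- alone and 12 in neither, among them Pou5f1 and Nanog. The strongest peaks were at Klf5 (21.9 and 22.1) and Stat3 (12.5 and 17.1). After Wdr5 knockdown 5 of the 27 rose and 18 fell (31.5% and 31.5% of all genes tested), the falls including 7 of the 12 bound in both and 8 of the 12 bound in neither. Klf5 went from 222 and 253 to 124 and 126 CPM (-0.93), Klf2 (6.76 and 8.31) fell by 0.99, and Pou5f1, without a WDR5 peak, fell from 1015 and 1030 to 615 CPM in both libraries (-0.73, adjusted p = 1.8e-13). In Rybp-/- ESCs 13 rose and 8 fell (22.8% and 22.7% of all genes tested), such as Tbx3 (0.77), Tcfcp2l1 (0.56) and Utf1 (-0.51).

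Germline genes had WDR5 peaks that were called in Rybp-/- ESCs alone and none called in Rybp+/+ alone. Of 29 germline genes known as PRC1.6 targets 14 were bound in both genotypes, none in Rybp+/+ alone, 6 in Rybp-/- alone and 9 in neither, and 26 carried RING1B. The 6 were Tex101 (6.70), Tex11 (4.59), Sycp1 (4.07), Sycp3 (3.54), Sohlh2 (3.47) and Syce1 (3.01), which encode meiotic and germ cell proteins. Over all annotated genes 1239 were bound in Rybp-/- alone and 619 in Rybp+/+ alone. In Rybp-/- ESCs 10 of the 14 genes bound in both rose and 3 fell, and 5 of the 6 bound in Rybp-/- alone rose, Sycp3 being the exception (-0.09, adjusted p = 0.46), where 21.2% and 29.1% of all tested genes in these binding classes rose. After Wdr5 knockdown all 14 bound in both rose (33.0% of all tested genes bound in both), with a median log2 fold change of 0.67, whereas of the 6 bound in Rybp-/- alone 1 rose (Tex101, 3.37) and 3 fell (Sohlh2, -1.10, Syce1, -0.35, and Sycp3, -1.19).

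**Figure D5:**
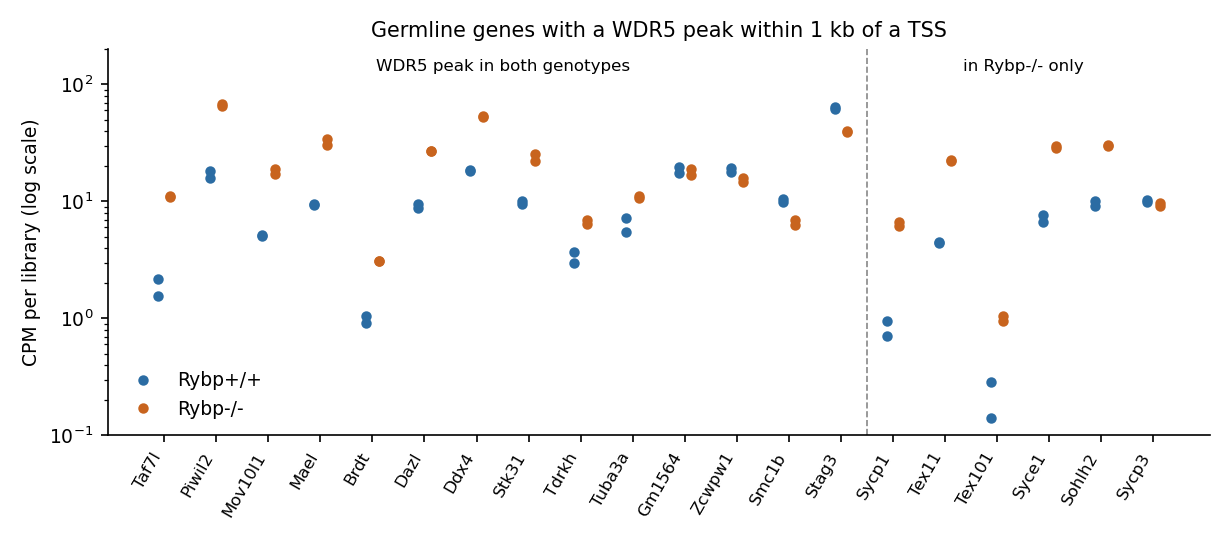
CPM (log scale) in each Rybp+/+ (blue) and Rybp-/- (orange) library for the 20 germline genes with a WDR5 peak within 1 kb of a TSS, sorted within each part by log2 fold change, with genes bound in both genotypes left of the dashed line and genes bound in Rybp-/- alone right of it. The libraries of the genotypes do not overlap for 19 of the genes, Gm1564 being the exception, and Stag3, Zcwpw1, Smc1b and, without passing the test, Sycp3 are lower in Rybp-/-.

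Dazl, an RNA-binding protein of germ cells, had peaks of 6.15 and 9.52 and rose in both comparisons, from 9.45 and 8.87 to 27.1 and 27.0 CPM in Rybp-/- (1.56, adjusted p = 1e-17) and from 9.03 and 10.5 to 55.5 and 57.2 CPM in shWdr5 libraries (2.53, adjusted p = 6e-17). Ddx4, the helicase known as VASA (8.05 and 11.9), rose by 1.54 and 1.65. Sycp1, of the synaptonemal complex, went from 0.954 and 0.708 to 6.18 and 6.69 CPM in Rybp-/- (2.95, adjusted p = 5.3e-15) and did not pass the test after Wdr5 knockdown (0.03, adjusted p = 0.86). Opposite directions were called for Stag3, a meiotic cohesin subunit (15.5 and 12.8), at -0.67 in Rybp-/- and 1.04 after Wdr5 knockdown, and for Smc1b (3.72 and 3.73) at -0.62 and 1.71. The strongest peak of the group was at Tdrkh, of the piRNA pathway (47.9 and 44.5), which rose by 1.01 and 0.59. The E-box and E2F letters to which PRC1.6 binds through MGA and E2F6 were looked for in the 200 bases at the summit of the Rybp-/- peak of 19 of these 20 genes. CACGTG was found at Ddx4, Stk31 and Sycp3 and GCGGGAA at Ddx4, Smc1b and Tuba3a, on either strand. These letters were present in 6.66% and 7.60% of all shared Rybp-/- peaks and in 5.90% and 6.03% of knockout-only peaks. Of these, 4 are given with 30 bases of mm9, plus strand, and with the match in capitals, the E-box at Ddx4, Stk31 and Sycp3 and the E2F letters at Smc1b, while the E2F matches at Ddx4 and Tuba3a and a further E-box at Sycp3 are not shown.
Ddx4 site: cttaaacggctgCACGTGcgggcggacgcc
Stk31 site: aggccggccaccCACGTGaccagggctgcg
Sycp3 site: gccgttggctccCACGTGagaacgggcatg
Smc1b site: aaaaaaaaaagcGCGGGAAgaaattctttt
They lie at chr13:113442530-113442559 (Ddx4), chr6:49345471-49345500 (Stk31), chr10:87922256-87922285 (Sycp3) and chr15:84962417-84962446 (Smc1b).

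Lineage regulators held by Polycomb in ESCs had weak WDR5 peaks. All 46 of these genes that the annotation held carried RING1B, 24 were bound by WDR5 in both genotypes, 5 in each genotype alone and 12 in neither, and none had a peak in the top decile. At the 24 genes the median percentile was lower by 7.53 in Rybp-/-, and 9 had a higher fold enrichment there, against a median change of +1.08 over all 9860 pairs. The values at genes are those of the strongest peak in each genotype, so the matched pairs are not a like reference. Gata3, a trophoblast regulator (3.45 and 4.76), rose in both comparisons, from 0.394 and 0.422 to 1.04 CPM in both Rybp-/- libraries (1.34, adjusted p = 0.0035) and by 2.103 after Wdr5 knockdown. Tcfap2c, of trophoblast and germ cells (5.99 and 5.52), rose by 0.20 and 1.498, and Pax6, of neuroectoderm (5.13 and 3.58), fell by 1.31 and 1.16. In all 12 of the 39 tested genes rose and 4 fell in Rybp-/-, where 22.8% and 22.7% of all genes tested did so, and 19 of 32 rose and 8 fell after Wdr5 knockdown, against 31.5% and 31.5%. Of 20 genes of the two-cell-like state, a rare state of ESC cultures, 1 was bound in both genotypes and 19 in neither. Over all annotated genes 28.8% were bound in both and 66.25% in neither. Of these two-cell-like genes 17 of 18 tested rose in Rybp-/- ESCs (22.8% of all genes tested). After Wdr5 knockdown 8 of 13 fell (31.5% of all genes tested). Many two-cell-like genes belong to families of near-identical copies, so single values are uncertain.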

How the data were processed

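ChIP-seq and RNA-seq of mouse ESCs were used as deposited. For WDR5 the authors trimmed reads with Trim Galore, aligned them to mm9 with Bowtie2, removed duplicates, merged the 2 replicates of a genotype and called peaks with MACS2 against 1 input at a stated FDR of 0.01. The deposited peak lists give the fold enrichment, a ratio to the local background, and the −log10 q of each peak. The lowest deposited −log10 q was 1.31, and 1.39% (Rybp+/+) and 1.28% (Rybp-/-) of peaks were under 2. RNA-seq reads were aligned by the authors with STAR and the deposited counts per gene made with HTSeq. Other ChIP lists (H3K4me3, H3K27ac, STAT3, RING1B) were used for overlaps.

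Peaks were compared by an overlap of at least 1 bp, genes and TSSs came from the mm9 annotation, and fold enrichments were compared by percentile within a list. Counts were tested with edgeR 4.0.16 in R 4.3.3 (TMM, filterByExpr, quasi-likelihood, Benjamini-Hochberg adjusted p under 0.05), 2 libraries against 2, with DESeq2 1.42.0 as an alternative. CPM per library used TMM library sizes. Entries that name no gene held 13.7% to 14.1% of reads in the R7.15 libraries and 56.3% to 57.4% in the R1 libraries, of which unaligned reads made up 48.8% to 49.1% of all reads, and were left out. Of 37620 gene IDs 37205 matched the annotation. Peaks and sequences were handled with Python 3.11.15, pandas 2.3.3, numpy 2.4.6, scipy 1.17.1 and pysam 0.24.0, and figures drawn with matplotlib 3.10.9. Tested on simulated data with 200 changed genes, edgeR recovered 83.3%, 94% and 100% of log2 changes of 0.5, 1 and 2 in the Rybp comparison (16666 genes), and 75.8%, 92.5% and 98.5% in the Wdr5 comparison (14820 genes).

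Named genes were those with the strongest shared peaks, the strongest peaks of 1 genotype alone, the largest changes of percentile among pairs with a mean percentile of 50 or more, the largest called RNA changes at a mean of at least 5 CPM, and members of 20 gene lists with the strongest peaks or largest changes (497 of 515 entries matched, 20 of them through an older symbol). Members and lists were chosen with earlier results of these data known. Replicates differed by more than sampling noise (chi-square per degree of freedom 2.25 to 6.44).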

Additional observations from a re-analysis of the deposited data

How the results depend on the processing

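The share of peaks without a partner depended on how peaks were matched. It was 16.9% of Rybp+/+ and 24.8% of Rybp-/- peaks when the overlap had to cover 50% of the peak, 9.76% and 17.0% with peaks within 500 bp joined, and 8.7% and 15.7% when a peak within 500 bp counted as a match, an alternative chosen after seeing the data. With the same number of top-ranked peaks from each list (a ratio of 100%) it was 15.5% and 15.6%, and both the ratio and the near-equal shares follow from the equal lengths, so they do not bear on the difference between the full lists. With −log10 q of at least 5, 19.4% of Rybp-/- peaks had no partner and 89.6% of shared peaks lay within 1 kb of a TSS. On the full lists 91.0% of shared peaks lay within 2.5 kb. The numbers of all genes called, and of genes bound in both that rose or fell, stayed within 1.5 times under every alternative run. Of the counts for gene lists and their parts, 45 went beyond that range under an alternative. With replicate number as a block 7724 genes were called in Rybp-/- and 9865 after Wdr5 knockdown, against 7720 and 9547 without it. Same-numbered libraries did not deviate together (correlations of -0.02 and 0.02 over 2 pairs), so the numbers were not taken as pairs. DESeq2 called 6306 and 7197 genes. Of 800 values for 100 gene results 777 kept direction and call, 15 lost the call and 4 gained it. The other 4 changed sign, all without a call: Il17rd (from -0.054 to 0.02 with a replicate left out), Hspa1b (from -0.072 to 0.027, and 0.023) and E2f3 in Rybp-/- (from -0.071 to 0.03). Peaks pooled over replicates, unknown ChIP depth, 1 input per genotype, RING1B from another line, and 2 RNA libraries per group limit these results.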
